A study of Homo sapiens with 9 samples.

Results

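The 10 genes described here encode regulators of the BCL2 family: BCL2, BCL2L1, MCL1, BAX, BAK1, BBC3, PMAIP1, BID, BIK and BCL2L11. They were chosen by name, and each symbol matched 1 Ensembl identifier, so 10 of the 60617 genes in the count files are described. The RNA-seq data came from PC-3, an established human prostate cancer cell line grown in RPMI1640 medium. Control cells, which were given vehicle, gave 3 libraries. Another 3 came from cells exposed to decitabine at 1 µM, and 3 from cells exposed to that dose plus S-adenosylmethionine (SAM) at 200 µM, called the combination treatment or the combination. The labels give 5 days of treatment, and the doses are those of the paper. Decitabine is a nucleoside analogue that is built into DNA and traps DNA methyltransferases, and SAM is the methyl donor of most cellular methylation reactions. Libraries of SAM alone were not analysed here, so an effect of SAM could be read only on top of decitabine. All samples are of 1 cell line, and nothing in the labels says whether the libraries of a group came from separate cultures, so p-values measure the spread between these libraries, which may be technical.

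The proteins of this family decide whether the outer mitochondrial membrane is opened, the step that releases cytochrome c and starts the caspase cascade of intrinsic apoptosis. BCL2, BCL-xL (from BCL2L1) and MCL1 hold the membrane closed, BAX and BAK (from BAK1) form the pore, and BH3-only proteins such as PUMA (BBC3), NOXA (PMAIP1), BID, BIK and BIM (BCL2L11) bind the other classes and shift the balance towards opening. Much of the regulation of the family takes place after transcription, by splicing, cleavage, phosphorylation or turnover, none of which is seen in transcript counts per gene.

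Decitabine acts on methylation at CpG dinucleotides, so the sequences before a transcription start of 4 members are shown with each CG in capitals. BCL2 and BCL2L1 are shown because their transcripts moved in opposite directions with both treatments, and BAK1 and PMAIP1 because theirs rose under decitabine and were lower again under the combination. Each sequence is the 250 bases before a RefSeq transcription start on GRCh38.p14, written 5′ to 3′ on the strand of the gene. The positions are chr18:63319770-63320019 (minus strand) for BCL2, chr20:31723964-31724213 (minus strand) for the first of the starts of BCL2L1, chr6:33580277-33580526 (minus strand) for BAK1 and chr18:59899746-59899995 (plus strand) for PMAIP1. In the GENCODE annotation the BCL2 stretch lies wholly inside the gene, downstream of its annotated 5′ end, and those of BCL2L1 and BAK1 reach a few bases into theirs.
BCL2: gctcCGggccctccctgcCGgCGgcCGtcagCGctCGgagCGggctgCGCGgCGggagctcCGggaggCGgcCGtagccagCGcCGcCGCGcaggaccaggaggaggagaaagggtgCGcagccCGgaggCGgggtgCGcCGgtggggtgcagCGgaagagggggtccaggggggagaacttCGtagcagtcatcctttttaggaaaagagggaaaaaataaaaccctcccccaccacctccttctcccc
BCL2L1: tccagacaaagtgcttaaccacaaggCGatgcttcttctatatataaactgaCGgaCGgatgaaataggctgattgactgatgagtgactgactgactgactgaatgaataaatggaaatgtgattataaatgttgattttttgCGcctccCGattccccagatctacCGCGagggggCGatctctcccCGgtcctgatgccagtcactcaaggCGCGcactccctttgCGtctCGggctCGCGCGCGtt
BAK1: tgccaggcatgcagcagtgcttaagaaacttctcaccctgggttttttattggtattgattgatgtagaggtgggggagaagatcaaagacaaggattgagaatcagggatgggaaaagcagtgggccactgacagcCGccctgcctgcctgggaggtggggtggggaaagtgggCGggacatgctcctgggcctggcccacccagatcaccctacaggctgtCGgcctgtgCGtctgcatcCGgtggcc
PMAIP1: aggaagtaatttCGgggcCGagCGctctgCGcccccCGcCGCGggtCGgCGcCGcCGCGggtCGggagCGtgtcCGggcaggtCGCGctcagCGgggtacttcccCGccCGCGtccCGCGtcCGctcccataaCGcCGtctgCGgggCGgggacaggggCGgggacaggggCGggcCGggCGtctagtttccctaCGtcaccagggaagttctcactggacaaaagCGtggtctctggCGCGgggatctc
The 4 sequences differed widely in CpG content, with 24 CG in BCL2, 17 in BCL2L1, 5 in BAK1 and 36 in PMAIP1. Windows from 250 bases before to 50 bases after a start were at hand for 8 of the members, in 13 windows, and not for MCL1 and BIK. Over all 35116 RefSeq windows of 300 bases the median was 14 CG, with quartiles of 4 and 28. In these windows PMAIP1 had 42 CG, BCL2L11 39, BAX 38, BCL2 31, BCL2L1 20 and 16, BAK1 7 and BBC3 5, while the 5 windows of BID held between 6 and 37. In the GENCODE annotation the windows of BCL2L11 and BCL2 and most of those of BID lie wholly inside the gene. Those of BBC3 and BAX reach into theirs by more than 50 bases. Their CG and motif counts are thus not those of the sequence before the annotated 5′ end. BAK1 and PMAIP1, which were shown for their shared pattern over the groups, lay on opposite sides of the median. A link between CpG content and the changes in transcripts was not tested. Methylation was not measured in the files used here.
Motifs were searched on both strands of these windows. The core of the interferon-stimulated response element, a spaced repeat of GAAA, occurred in BBC3, at 2 places, and in no other member window, against 3.57% of all windows. TTCNNNGAA, the core bound by STAT factors, was in none of the member windows, against 7.66% of all. The GC box GGGCGG, which itself holds a CG, was found in BAX, BAK1, PMAIP1, BCL2L11, 4 of the BID windows and the second BCL2L1 window, against 45.0% of all. The E-box CACGTG occurred in BAX, with 4 matches, in BBC3 and in 2 BID windows, against 7.26% of all.

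Total counts lay between 21934307 and 22489684 per library. Values are given as CPM, the count of a gene relative to the effective size of its library, scaled with the TMM method, which corrects for unequal library composition. Its factors were 0.895 to 0.902 in the controls and 1.03 to 1.08 in the treated libraries. Without this correction, that is by library size alone, the median of the log2 fold changes of the 18532 tested genes was 0.28 instead of 0.035 for decitabine and 0.27 instead of 0.048 for the combination treatment, so a small change against the controls depends on the scaling. The libraries carried the markers of an epithelial line, with all 5 of KRT8, KRT18, KRT19, EPCAM and CDH1 counted in every library and a summed level of 725 to 955 CPM. KLK3, a marker of the prostate lineage, was at 0 in all libraries, and STAT3 had 0 counts in all 9. Of 4 fibroblast markers, the sum was 3.35 to 5.30 CPM in the controls, 86.7 to 130 CPM under decitabine and 70.4 to 100 CPM under the combination, carried by COL1A1, COL1A2 and LUM. Of 3 endothelial markers, the sum was 9.87 to 10.5, 30.9 to 41.7 and 36.5 to 43.8 CPM, nearly all from PECAM1, with VWF and CDH5 at 0.888 CPM or less, and of 4 leukocyte markers 0.198 to 0.300, 1.65 to 2.23 and 1.49 to 1.83 CPM. The part of these markers in the values below was not tested. In bulk RNA, fewer cells of a kind and less RNA per cell cannot be told apart.

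In control PC-3 cells BCL2L1 and MCL1 had the highest levels of the 10 members, and BCL2 itself the lowest. Levels of different genes are compared here as CPM per kilobase of annotated exon. BCL2L1 was highest with 60.9 ± 0.851 (SD, n = 3), followed by MCL1 with 41.9 ± 3.34, BAK1 with 32.6 ± 2.37, PMAIP1 with 18.9 ± 1.97 and BAX with 14.4 ± 1.21. BID had 9.01 ± 0.231, BCL2L11 2.57 ± 0.162, BIK 1.57 ± 0.398, BBC3 1.04 ± 0.319 and BCL2 0.726 ± 0.0670 CPM per kilobase. BCL2L1 was thus the most abundant pro-survival transcript. BAK1 was above BAX by this length, but the order of the pore-formers depends on the length used. The annotated exon bases were 2587 for BAX and 2212 for BAK1, and the canonical transcripts 795 and 2170 bases. By the canonical length BAX, with a mean of 37.2 CPM, would lie above BAK1, with 72.2 CPM. BIK and BBC3, and BBC3 and BCL2, did not differ beyond their spread. With the length of the longest transcript in place of all annotated exon bases, the order of PMAIP1 and BAX and that of BIK and BBC3 turned around, with 27.4 for BAX against 21.7 for PMAIP1 and 1.80 for BBC3 against 1.57 for BIK, which overlapped. The treatments left BCL2L1 first and BCL2 last. BAK1 passed MCL1 in CPM per kilobase, with 48.2 ± 0.644 against 36.3 ± 1.71 under decitabine and 35.8 ± 3.16 against 29.4 ± 3.005 under the combination treatment, where the libraries of the combination treatment overlapped. With the longest transcript MCL1 had the higher mean in both groups, with overlapping libraries, so the order depends on the length used. BIK passed BCL2L11 under both treatments, with 4.82 ± 0.605 against 2.62 ± 0.290 and 4.57 ± 0.307 against 2.91 ± 0.314.

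**Figure D1:**
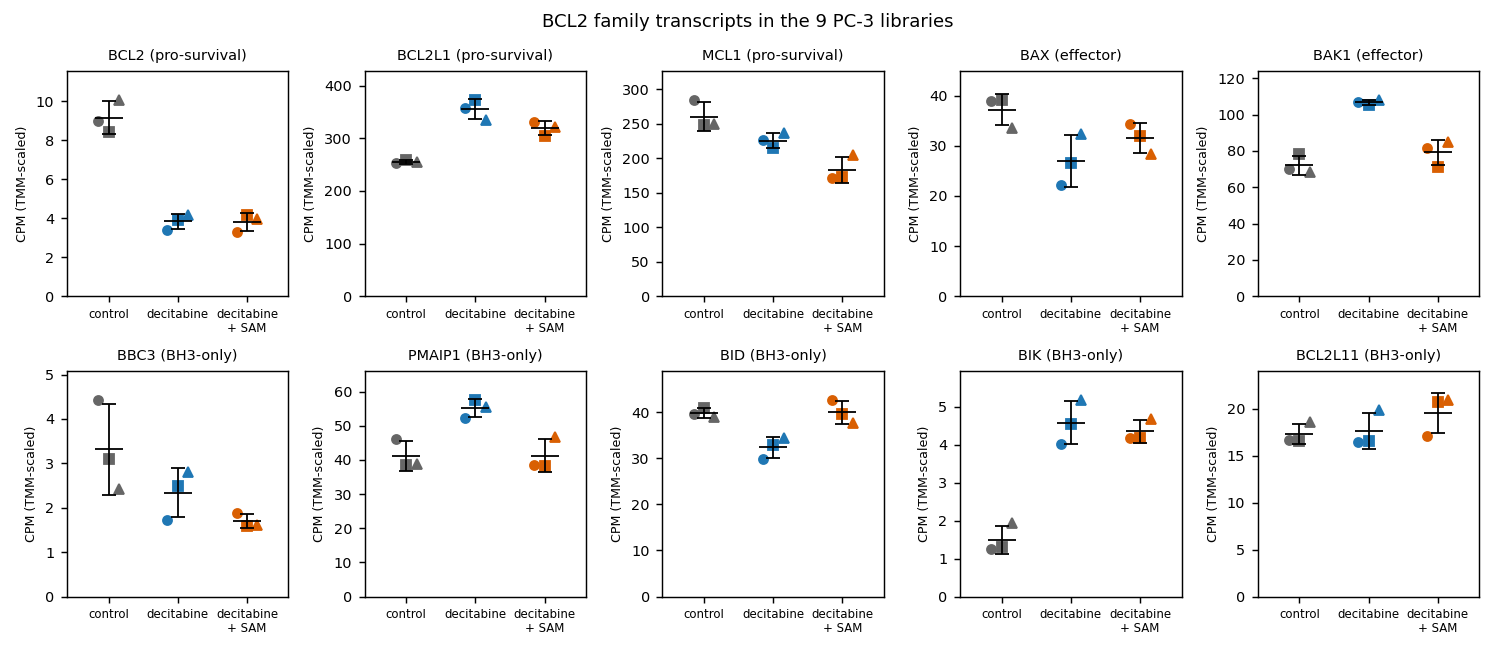
TMM-scaled CPM of each member in each library (y axis, starting at 0), by group (x axis). Symbols mark the replicate number (circle 1, square 2, triangle 3), the horizontal bars are means and the whiskers 1 SD of 3 libraries. BCL2 is lower and BIK higher in all 6 treated libraries than in the controls, and BAK1 and PMAIP1 are highest under decitabine alone.

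Decitabine against the controls showed how the family answered to the demethylating agent alone. Of the 10 members, all of which passed the filter on low counts, 4 were higher (BCL2L1, BAK1, PMAIP1 and BIK) and 4 lower (BCL2, MCL1, BAX and BID). Over all genes tested, 36.3% were called higher, 32.5% lower and 68.8% in either direction, so the share of members called was close to that of all genes. The same 8 members did not overlap between the groups, where 72.9% of all genes did not (38.1% higher and 34.8% lower). Each functional class was split, with 1 of 3 pro-survival genes higher and 2 lower, 1 of 2 pore-formers in each direction, and 2 BH3-only genes higher and 1 lower. The median log2 fold change of the members was -0.09, against 0.035 for all genes. Under the combination against the controls, 2 members were higher (BCL2L1 and BIK) and 3 lower (BCL2, MCL1 and BBC3), against 35.9% and 31.3% of all genes and 67.2% in either direction. These 5 were also the members without overlap, where 71.6% of all genes had none (38% higher and 33.6% lower). The median of all 10 was 0.0033, against 0.048 for all genes. The same controls enter both comparisons.

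**Figure D2:**
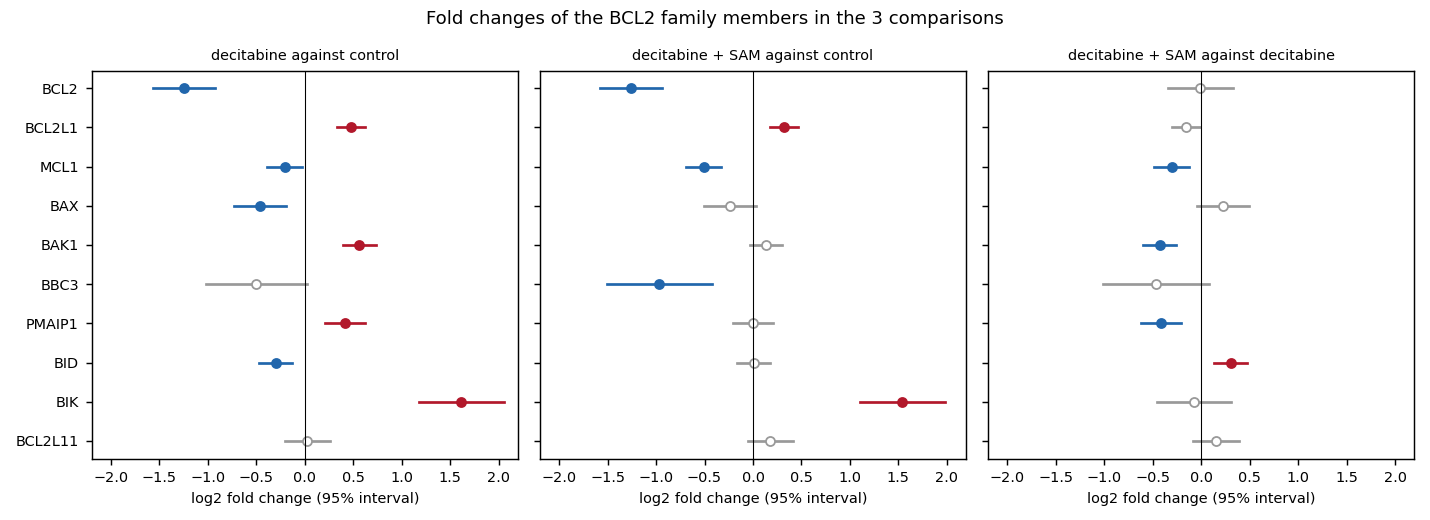
Log2 fold change of each member (x axis) with its 95% interval in the 3 comparisons, from edgeR's quasi-likelihood test. Red is higher, blue lower, and open grey points did not pass an adjusted p of 0.05. BCL2 and BIK lie farthest from 0 in both comparisons with the controls, and near 0 between the treatments.

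BCL2 (ENSG00000171791, chromosome 18, 63123346 to 63320128), the founding anti-apoptotic member, fell with both treatments. Positions of genes are those of GENCODE release 44 on GRCh38. The controls had 8.99, 8.41 and 10.1 CPM, the decitabine libraries 3.43, 3.92 and 4.19 CPM, and the combination libraries 3.31, 4.18 and 3.96 CPM. Every treated library was below every control, and the treated groups overlapped. The log2 fold change was -1.25 under decitabine (standard error 0.15, edgeR quasi-likelihood test, adjusted p = 4.2e-06) and -1.26 under the combination (standard error 0.15, adjusted p = 4.1e-06). BCL2 fell by 58.0% under decitabine and fell by 58.3% under the combination. Only 3.10% of all genes had a lower log2 fold change under decitabine. The treatments differed by -0.01, with a 95% interval of -0.35 to 0.32. These values rest on 168 to 204 counts per control library and 76 to 99 counts per treated library.
BCL2L1 (ENSG00000171552, chromosome 20, 31664452 to 31723989), whose long splice form BCL-xL protects cells and whose short form promotes death, rose with both treatments. It had 252, 259 and 255 CPM in the controls, 358, 373 and 336 CPM under decitabine, and 331, 304 and 322 CPM under the combination. The 3 groups did not overlap, and the decitabine libraries were highest. The log2 fold change was 0.48 under decitabine (standard error 0.07, adjusted p = 2.3e-05) and 0.32 under the combination (standard error 0.07, adjusted p = 0.00076), both from edgeR's quasi-likelihood test. The difference of -0.16 between the treatments was not called (95% interval -0.30 to -0.01, adjusted p = 0.14). Counts per gene do not tell the splice forms apart. ABALON, a long non-coding RNA on the other strand of this locus, had 8 to 67 counts per library, against 5082 or more for BCL2L1.
MCL1 (ENSG00000143384, chromosome 1, 150560895 to 150579738), a short-lived guardian that is lost fast when its transcription stops, was lowest under the combination. The controls had 285, 248 and 249 CPM, the decitabine libraries 226, 215 and 236 CPM, and the combination libraries 172, 173 and 205 CPM. The 3 groups did not overlap. Under the combination the log2 fold change was -0.51 (standard error 0.09, edgeR quasi-likelihood test, adjusted p = 1e-04). Under decitabine it was -0.21 (standard error 0.08, adjusted p = 0.042). This smaller change turned to 0.04 by library size alone (adjusted p = 0.71), and the call was lost with DESeq2 (adjusted p = 0.059), with its size factors in edgeR (0.063) and with a minimum mean of 10 counts (0.062). It was also not called without control replicate 1 (-0.15), decitabine replicate 1 (-0.21) or decitabine replicate 2 (-0.18).

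BAX (ENSG00000087088, chromosome 19, 48954815 to 48961798), the pore-former that waits in the cytosol until it is activated, was lower under decitabine. It had 38.9, 39.1 and 33.6 CPM in the controls, 22.1, 26.6 and 32.3 CPM under decitabine, and 34.4, 31.9 and 28.4 CPM under the combination. The decitabine libraries spread most and lay below the controls, while the combination libraries overlapped both other groups. Under decitabine the change on the log2 scale was -0.46 (standard error 0.12, edgeR quasi-likelihood test, adjusted p = 0.0045), and -0.21 by library size alone, where it was not called (adjusted p = 0.14). Under both agents it was -0.24 (95% interval -0.50 to 0.03, adjusted p = 0.10). This value was called without decitabine replicate 1 (adjusted p = 0.048), without decitabine replicate 3 (0.046) and without a filter on low counts (-0.27, 0.016).
BAK1 (ENSG00000030110, chromosome 6, 33572547 to 33580293), the pore-former that resides in the mitochondrial membrane, rose under decitabine and was lower again under the combination. The controls had 70.0, 78.1 and 68.4 CPM, the decitabine libraries 107, 105 and 108 CPM, and the combination libraries 81.5, 71.3 and 84.7 CPM. The decitabine libraries stood above all 6 others with little spread, and the other groups overlapped. Decitabine gave a log2 fold change of 0.56 (standard error 0.08, edgeR quasi-likelihood test, adjusted p = 1.8e-05). Under both agents it was 0.13 (95% interval -0.04 to 0.30, adjusted p = 0.15), and 0.36 by library size alone, where it was called (adjusted p = 0.0015). Its processed pseudogenes BAK1P1 and BAK1P2 had at most 1 count per library.

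Among the BH3-only genes, BIK (ENSG00000100290, chromosome 22, 43110750 to 43129712) changed most. BIK is a BH3-only protein of the endoplasmic reticulum, and its transcript had 1.24, 1.30 and 1.93 CPM in the controls, 4.02, 4.56 and 5.17 CPM under decitabine, and 4.18, 4.18 and 4.69 CPM under the combination. All treated libraries were above all controls, and the treated groups overlapped. It rose 3.07-fold under decitabine (95% interval 2.27 to 4.15, edgeR quasi-likelihood test, adjusted p = 7.1e-06) and 2.91-fold under the combination (95% interval 2.15 to 3.95, adjusted p = 1.2e-05). Of all genes tested, 83.1% had a lower log2 fold change than BIK under decitabine. The difference between the treatments was -0.07 on the log2 scale (95% interval -0.46 to 0.31). The controls held only 25 to 39 counts of BIK per library, and the treated libraries 95 to 122.
PMAIP1 (ENSG00000141682, chromosome 18, 59899996 to 59904305) encodes NOXA, which binds MCL1 and sends it to degradation. It had 46.2, 38.6 and 38.8 CPM in the controls, 52.3, 57.4 and 55.6 CPM under decitabine, and 38.6, 38.3 and 46.8 CPM under the combination. As with BAK1, the decitabine libraries stood above all 6 others and the other groups overlapped. On the log2 scale the change was 0.42 under decitabine (standard error 0.10, edgeR quasi-likelihood test, adjusted p = 0.0014) and 0.0015 under the combination (95% interval -0.21 to 0.21).
BID (ENSG00000015475, chromosome 22, 17734138 to 17774770), which is cleaved by caspase-8 and links death receptors to mitochondria, showed the opposite order. The controls had 39.5, 41.0 and 39.0 CPM, the decitabine libraries 29.9, 32.9 and 34.4 CPM, and the combination libraries 42.6, 39.6 and 37.7 CPM. The decitabine libraries were below all 6 others, and the other groups overlapped. Its log2 fold change under decitabine was -0.30 (standard error 0.08, edgeR quasi-likelihood test, adjusted p = 0.0042), and -0.05 by library size alone, where it was not called (adjusted p = 0.58). Under both agents it was 0.0051 (95% interval -0.17 to 0.18), and 0.23 by library size alone, where it was called (adjusted p = 0.021).
BBC3 (ENSG00000105327, chromosome 19, 47220822 to 47232766), the gene of PUMA, was sparse, with 36 to 89 counts per library. It had 4.42, 3.10 and 2.42 CPM in the controls, 1.73, 2.49 and 2.79 CPM under decitabine, and 1.87, 1.58 and 1.62 CPM under the combination. Only the combination libraries lay below every control. Under both agents the change was -0.97 on the log2 scale (standard error 0.25, edgeR quasi-likelihood test, adjusted p = 0.0036). Under decitabine it was -0.50 (95% interval -1.02 to 0.02, adjusted p = 0.081), and it was called without control replicate 3 (-0.69, adjusted p = 0.024), without decitabine replicate 3 (-0.65, adjusted p = 0.049) and without a filter on low counts. It was closer to 0 by library size alone (-0.25, adjusted p = 0.38), without control replicate 1 (-0.25) and without decitabine replicate 1 (-0.33). The treatments differed by -0.47 (95% interval -1.02 to 0.08), which was not called (adjusted p = 0.24).
BCL2L11 (ENSG00000153094, chromosome 2, 111119378 to 111168444), the gene of BIM, which can bind every pro-survival protein of the family, was not called in any of the 3 comparisons. It had 16.7, 16.6 and 18.6 CPM in the controls, 16.5, 16.5 and 19.9 CPM under decitabine, and 17.2, 20.7 and 20.9 CPM under the combination. The 3 groups overlapped. The log2 fold change was 0.03 under decitabine (95% interval -0.21 to 0.26) and 0.18 under the combination (95% interval -0.06 to 0.42), called for neither. By library size alone both were called, at 0.27 (adjusted p = 0.048) and 0.40 (adjusted p = 0.007). The non-coding gene MIR4435-2HG overlaps BCL2L11 on the other strand, with 952 to 1017 counts per control library and 1737 to 2020 per treated library, and the strand setting of the counting is not given in the sources used here.

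The combination treatment against decitabine asked what SAM changed in cells that also received decitabine. Of the 10 members, 1 was higher (BID) and 3 were lower (MCL1, BAK1 and PMAIP1), against 7.67% and 8.02% of all genes and 15.7% in either direction. With BCL2L1, 4 members lay lower without overlap and 1 higher, against 16.8% and 17.2% of all genes and 34% in either direction. The median log2 fold change of the members was -0.11, against 0.0021 for all genes. BAK1 differed by -0.43 (standard error 0.08, edgeR quasi-likelihood test, adjusted p = 0.0037), and was called in each of the 9 fits that left out 1 library, between -0.48 and -0.36. PMAIP1 differed by -0.42 (standard error 0.10, adjusted p = 0.011), but was not called without decitabine replicate 2 (adjusted p = 0.061) or combination replicate 2 (0.072). MCL1 differed by -0.30 (standard error 0.08, adjusted p = 0.028) and lost its call without any 1 of the 3 decitabine libraries or without combination replicate 1 or 2, at adjusted p-values of 0.063 to 0.14. BID was higher by 0.30 (standard error 0.08, adjusted p = 0.021) and lost its call without replicate 1 or 2 of either treatment, at adjusted p-values of 0.074 to 0.09.
BAX, at 0.23 (95% interval -0.04 to 0.49, adjusted p = 0.24), was called only when decitabine replicate 3 was left out (0.37, adjusted p = 0.039). BCL2L11 differed by 0.15 (95% interval -0.08 to 0.38, adjusted p = 0.37). For BAK1, PMAIP1 and BID the combination libraries overlapped the controls, whereas for MCL1 they lay further from the controls than the decitabine libraries did.

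**Figure D3:**
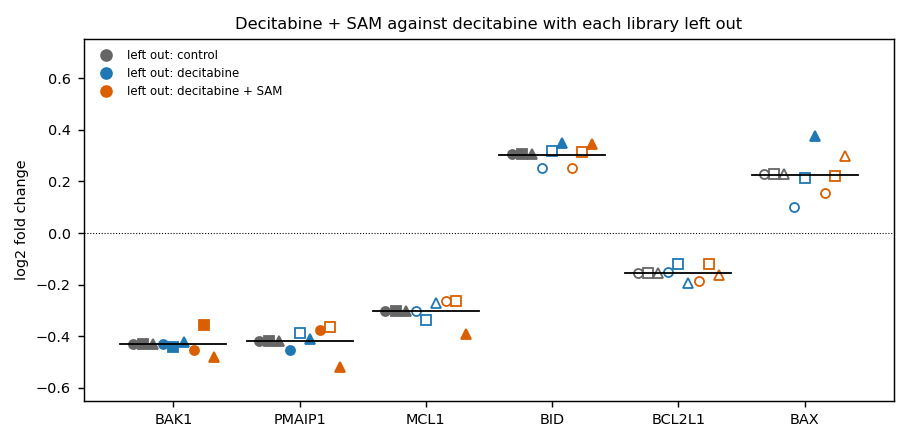
Log2 fold change of 6 members between the combination treatment and decitabine (y axis) in the 9 fits that each left out 1 library. Colour gives the group and symbol the replicate number of the library left out, filled symbols passed an adjusted p of 0.05, and the black line is the value with all 9 libraries. BAK1 is filled in every fit, while PMAIP1, MCL1 and BID lose the call in 2, 5 and 4 fits.

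Ratios of counts between members of 1 library need no scaling between libraries. They are given as a description, without a test and without a correction for length. The ratio of BAX to BCL2 was 4.33, 4.65 and 3.34 in the controls and 6.46, 6.77 and 7.71 under decitabine. Under the combination it was 10.4, 7.63 and 7.17. All treated libraries were thus above the controls, although BAX did not rise and BCL2 was the lowest member. Relative to BCL2L1, the highest member, BAX was lower in all treated libraries than in the controls. The controls had 681 to 784 counts of BAX and 5082 to 5184 of BCL2L1. Decitabine libraries had 523 to 764 and 7930 to 8839, and combination libraries 667 to 791 and 6918 to 7605. The ratio of BAK1 to MCL1 was 0.246, 0.315 and 0.274 in the controls, 0.473, 0.489 and 0.457 under decitabine and 0.475, 0.413 and 0.414 under the combination. The ratio of PMAIP1 to MCL1, a BH3-only protein and its main partner, moved from 0.156 to 0.162 in the controls to 0.231 to 0.267 under decitabine and 0.222 to 0.229 under the combination. For these pairs too, no treated library overlapped the controls. BCL2L1 and MCL1 had nearly equal counts in the controls, with a ratio of 0.986 ± 0.0868 (SD, n = 3), and 1.58 ± 0.155 and 1.76 ± 0.175 in the treated groups. BAK1 to BCL2L1 was 0.277, 0.301 and 0.268 in the controls, 0.299, 0.282 and 0.322 under decitabine and 0.246, 0.234 and 0.263 under the combination, where all 3 libraries lay below the other 6. The pore-formers shifted against each other, with a ratio of BAX to BAK1 of 0.516 ± 0.0346 in the controls, 0.253 ± 0.0460 under decitabine and 0.402 ± 0.0590 under the combination.

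**Figure D4:**
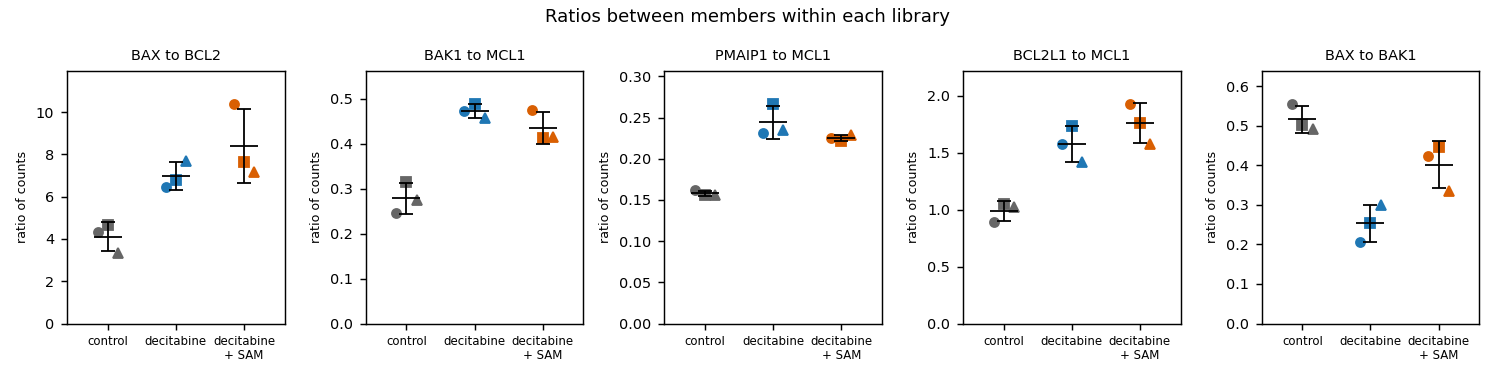
Ratio of estimated counts between pairs of members (y axis, starting at 0) in each library, by group (x axis), with means and 1 SD of 3 libraries. The ratios of BAX to BCL2, BAK1 to MCL1 and PMAIP1 to MCL1 are higher in all treated libraries than in the controls, and BAX to BAK1 is lowest under decitabine. The ratio of BAK1 to BCL2L1, which was lowest under the combination, is not drawn.

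Among further genes of the family, BMF and BCL2L10 rose under both treatments. Of 13 such genes, 11 were tested, and BCL2L14 and BCL2L15 had at most 17 counts per library. Under decitabine, 2 were higher (BCL2L10 and BMF) and 3 lower (BCL2A1, BOK and BNIP3), against 36.3% and 32.5% of all genes, and their share called in either direction was below the 68.8% of all genes. Under the combination, 4 were higher (BCL2L10, BMF, BAD and BCL2L12) and 4 lower (BCL2L2, BOK, BCL2L13 and BNIP3), against 35.9% and 31.3%. The median log2 fold changes of the 11 were 0.05 and -0.17, against 0.035 and 0.048 for all genes. By library size alone, decitabine gave 5 higher and 1 lower, and the combination treatment 2 lower. Here and for the lists below, the shares of all genes are those of the main fit with TMM. Shares by library size alone are not given, and the medians of all genes were then 0.28 and 0.27. Counts by library size alone therefore show how the calls depend on the scaling and are not a result about the listed genes. Genes of the lists other than the 3 with the largest change in each comparison were chosen for naming after their values were seen. BMF, a BH3-only gene whose protein is tethered to the cytoskeleton, had 2.09, 2.40 and 2.62 CPM in the controls, 12.1, 12.3 and 15.9 CPM under decitabine and 12.5, 11.9 and 19.0 CPM under the combination. The change on the log2 scale was 2.50 under decitabine (edgeR quasi-likelihood test, adjusted p = 1.7e-07) and 2.61 under the combination (adjusted p = 1.2e-07), beyond that of BIK. BCL2L10, a pro-survival gene best known from oocytes, had 0 counts in the controls, 62 counts over the decitabine libraries and 141 over the combination libraries. It was at least 17.6-fold higher under decitabine and at least 41-fold higher under the combination, with 3 counts over the control group as the floor. It was also higher under the combination than under decitabine (log2 fold change 1.22, adjusted p = 0.016), which was lost without combination replicate 1 (adjusted p = 0.070) or 2 (0.050). BCL2A1, an NF-kB-driven pro-survival gene, fell from 3.21 to 1.90 CPM under decitabine (log2 fold change -0.75, adjusted p = 0.017), which was not called without control replicate 2 (adjusted p = 0.075), without decitabine replicate 1 (0.073) or by library size alone (0.10). BNIP3, a hypoxia-driven mitophagy receptor, had a log2 fold change of -0.57 under decitabine and -0.74 under the combination.
Between the treatments, BCL2L10, BAD and BCL2L12 were higher and BCL2L2 and BCL2L13 lower under the combination, against 7.67% and 8.02% of all genes. Without combination replicate 1 or 2, 0 were higher and 1 lower, and without decitabine replicate 2, 1 and 1. BCL2L13, a mitochondrial outer membrane protein and mitophagy receptor, was lower (log2 fold change -0.69, edgeR quasi-likelihood test, adjusted p = 0.00067), with 82.1 CPM under decitabine and 50.8 CPM under the combination treatment. BCL2L12 differed by 0.39 (adjusted p = 0.014), which was not called without replicate 1 or 2 of either treatment. BCL2L12 lies opposite IRF3, BAD opposite GPR137, and BCL2L2 shares its locus with the readthrough gene BCL2L2-PABPN1. These overlaps are of gene positions, and whether reads of these pairs were fully told apart was not tested.

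**Figure D5:**
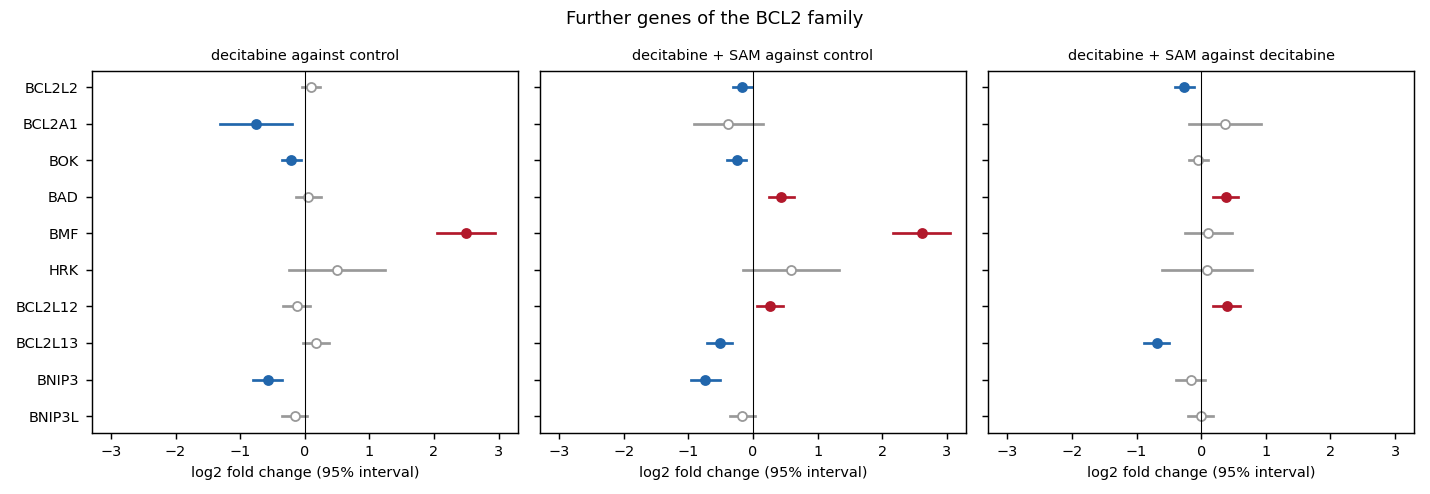
Log2 fold change (x axis) with its 95% interval for 10 further genes of the family in the 3 comparisons, coloured as for the members. BCL2L10 is left out because it had no counts in the controls. BMF is highest with both treatments, and BCL2L13 and BAD lie on opposite sides of 0 between the treatments.

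Downstream of the pore, the list of 16 apoptosome, caspase and inhibitor genes was tested in full. Under decitabine 6 were higher and 5 lower, under the combination 5 and 2, and between the treatments 3 were higher and 2 lower. Of all genes, 36.3% and 32.5%, 35.9% and 31.3%, and 7.67% and 8.02% were called in the same directions. The medians of the list were -0.06, 0.02 and 0.12, against 0.035, 0.048 and 0.0021 for all genes. Under the combination 1 was lower without control replicate 2 or 3, without combination replicate 1 or 3, with a minimum mean of 10 counts and with only the 6 libraries compared. By library size alone, 2 were lower under decitabine, and 8 were higher and 0 lower under the combination. Between the treatments, 1 was higher without combination replicate 1 or 2, and 4 were lower without combination replicate 3. BIRC3, which encodes the NF-kB target cIAP2, had 3.94 ± 0.937 CPM in the controls, 54.1 ± 14.6 under decitabine and 30.6 ± 16.9 under the combination (SD, n = 3). Its log2 fold changes were 3.78 (edgeR quasi-likelihood test, adjusted p = 0.00047) and 2.95 (adjusted p = 0.0018). CASP8, which cleaves BID, had 66.0 ± 2.50 CPM in the controls, 110 ± 10.02 under decitabine and 64.0 ± 8.82 under the combination, a difference of -0.78 between the treatments (adjusted p = 0.00041). BIRC5, the gene of survivin and a marker of dividing cells, went the other way, with 336, 198 and 320 CPM in the 3 groups and a difference of 0.69 between the treatments (adjusted p = 0.001). APAF1, the scaffold of the apoptosome, had a log2 fold change of 0.43 under the combination (adjusted p = 0.0038).
Of 10 genes for mitochondrial membrane partners of the family, 1 was higher and 7 lower with each treatment, where 36.3% and 32.5% of all genes were so called for decitabine and 35.9% and 31.3% for the combination, and the median of the list was -0.67 for decitabine and -0.50 for the combination treatment, against 0.035 and 0.048 for all genes. VDAC3 and VDAC1, channels of the outer membrane, had log2 fold changes of -0.996 and -0.86 under decitabine, and MTCH2, the receptor of cleaved BID, -0.76. Under the combination ITPR3, a calcium channel bound by BCL2 proteins, had -1.15, VDAC3 -0.84 and ITPR1 -0.67. These genes were called lower with both treatments. ITPR3 and ITPR1 each had -0.71 under decitabine, and VDAC1 and MTCH2 had -0.66 and -0.53 under the combination. ITPR3 was the gene of this list called between the treatments (-0.44, edgeR quasi-likelihood test, adjusted p = 0.01), and not without combination replicate 2 (adjusted p = 0.064). BCAP31 was the gene that rose with both, and by library size alone 2 genes rose with each, as they did under decitabine without decitabine replicate 3. UQCC2 overlaps ITPR3 on the other strand.
Of 12 transcription factors known to act on members, 10 were tested, and TP73 and STAT3 had too few counts. Under decitabine 3 were higher and 5 lower, against 36.3% and 32.5% of all genes, and under the combination 4 and 4, against 35.9% and 31.3%. The medians were -0.31 and -0.32. By library size alone 2 were lower under decitabine, and 3 were lower without control replicate 2 or decitabine replicate 1 or 2. Under the combination 2 were higher without control replicate 1. TP63, which can drive BBC3 and PMAIP1, had 2 counts over the controls and 419 and 511 counts over the treated groups, ratios of 178 (95% interval 49 to 1480) and 223 (61.4 to 1850) that cover counting error only. ATF4, which activates PMAIP1 and BBC3 under amino acid and endoplasmic reticulum stress, had log2 fold changes of -1.10 and -1.42. Its partner DDIT3 (CHOP) had -1.59 under the combination (edgeR quasi-likelihood test, adjusted p = 0.001) and -0.77 under decitabine (adjusted p = 0.027). Between the treatments ATF4 differed by -0.33 (adjusted p = 0.027), which was not called without any 1 of the 3 decitabine libraries or without combination replicate 1 or 2. ATF3 rose by 1.67 under decitabine (adjusted p = 0.0047) and by 1.09 under the combination (adjusted p = 0.031). Between the treatments E2F1 was higher by 0.40 (adjusted p = 0.0025). MARS1 overlaps DDIT3 on the other strand by gene position, and whether their reads were told apart was not tested.
Of 11 genes for turnover and tethering of the proteins, 1 was higher and 5 lower with each treatment, where 36.3% and 32.5% of all genes were so called for decitabine and 35.9% and 31.3% for the combination. The medians were -0.21 and -0.24. DYNLL1, the dynein light chain that holds BIM, rose by 0.42 and 0.71 on the log2 scale. It was higher under the combination than under decitabine by 0.28 (edgeR quasi-likelihood test, adjusted p = 0.021), which was not called without replicate 1 or 2 of either treatment. The 14-3-3 gene YWHAE, whose protein holds BAD, had -0.47 and -0.39, and YWHAB -0.33 under decitabine, where scaling by library size alone ended the call (adjusted p = 0.23). Under the combination YWHAB had -0.37 (edgeR quasi-likelihood test, adjusted p = 0.00015). HUWE1, a ubiquitin ligase of MCL1, had -0.39 under the combination (adjusted p = 0.0035), and -0.17 by library size alone, where the call was lost (adjusted p = 0.17). By library size alone 3 genes of this list were higher and 1 lower under decitabine, and 2 and 2 under the combination. SRSF9 lies on the other strand of DYNLL1 with 4211 to 5608 counts per library.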

How the data were processed

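RNA-seq libraries of PC-3 cells were grouped by the sample labels (3 controls, 3 with decitabine, 3 with decitabine and SAM). The authors removed low-quality reads with Trim Galore 0.6.4, quantified the rest with kallisto and related them to GRCh38.p13. The analysis starts from the deposited estimated counts (1 value for each Ensembl gene and library, with decimals and no normalization). The deposited log2 CPM values hold the same libraries and were not used. Gene names, positions and lengths are those of GENCODE release 44 on GRCh38, and promoter sequences those of RefSeq on GRCh38.p14.

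Counts were rounded, filtered with filterByExpr (18532 genes kept) and fitted over all 9 libraries with edgeR 4.0.16 in R 4.3.3, with TMM scaling, robust dispersions and the quasi-likelihood test. Benjamini-Hochberg adjustment ran over all tested genes, and an adjusted p under 0.05 is called. Standard errors were taken from the F statistic and 95% intervals from the t distribution. The libraries held 21934307 to 22489684 counts, and BCL2, BBC3 and BIK had at most 204 counts per library. The members and the lists were chosen with earlier results of these data known. All members were named, and of each list the 3 genes with the largest change among those called in each comparison. Some genes counted in the lists are not reported here by name. No library was a copy of another (chi-square per degree of freedom of 5.86 or more between replicates). The alternatives were voom with limma 3.58.1 (named in the paper), DESeq2 1.42.0 and its size factors inside edgeR, scaling by library size alone, unfiltered genes, a minimum mean of 10 counts, unrounded counts, fits on the 6 libraries of a comparison, a block for the replicate number, and fits without each library. Protein sequences were not used here.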

Additional observations from a re-analysis of the deposited data

How the results depend on the processing

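Of 540 values of the members under an alternative, 489 kept their direction and their side of the threshold, 19 lost the call, 11 gained it and 21 changed sign, all of the last at values that were not called in the main result except MCL1 under decitabine. By library size alone, under decitabine 1 member was lower in place of 4, MCL1 turned to 0.0403 and BAX and BID lost their calls, and under the combination 5 members were higher in place of 2. The median log2 fold changes of all tested genes also moved up, from 0.0348 to 0.281 and from 0.0479 to 0.268. The share of all genes called by library size alone is not given here, so these counts are not a result about the members. Without a filter, BCL2L11 under decitabine was -0.0127, and PMAIP1 and BID under the combination were -0.0299 and -0.0259. The cause was not tested. With 1 library left out, between 3 and 5 members were lower under decitabine and 4 higher in each fit, under the combination 3 to 4 were lower and 2 higher, and between the treatments 0 to 2 were higher and 1 to 3 lower. Uncalled values that changed sign ranged from -0.0694 to 0.0714 for BCL2L11 under decitabine, from -0.103 to 0.0828 for PMAIP1 and -0.0543 to 0.042 for BID under the combination, and, between the treatments, from -0.0879 to 0.078 for BCL2 and -0.16 to 0.0206 for BIK. Without combination replicate 2, as without decitabine replicate 2, 0 were higher and 1, BAK1, lower.

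The replicate numbers of the labels were not shown to pair the libraries. The deviations of libraries with the same number correlated at -0.0165 to 0.233 over genes, with 0.233 and 0.229 between decitabine and combination for replicates 1 and 3. In 12 of 18 cases a library was closest to its own number in another group, with 3 candidates in each case. Whether this is more than unpaired libraries would give was not tested. With the replicate number as a block, no call of a member changed, and PMAIP1 under the combination was at -0.00078. Low counts limit BCL2, BBC3, BIK and BCL2L10, and counts per gene cannot separate splice forms.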
